A study of Mus musculus with 18 samples.

Results

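The genes described here encode 6 insulin-like growth factor (IGF) binding proteins, Igfbp2 to Igfbp7, and the IGF receptors Igf1r and Igf2r. These 8 of the 30142 genes measured were chosen by name. The choice was made after Igfbp5 was seen among the genes with the largest difference between the sorted groups, so its differences, which rest on the same arrays, are given as a description, with no test. The other genes and their tests were also chosen with earlier results of these data known, so their p-values are not independent of that knowledge. Each of the 8 genes had a single probe set with its symbol as the only one.

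Lung epithelial cells came from mice of 8 to 12 weeks that carried the TCF/Lef:H2B/GFP transgene, in which TCF/Lef binding sites, the DNA elements through which Wnt/beta-catenin signalling acts, drive green fluorescent protein (GFP) fused to histone H2B. After depletion of CD31 and CD45 positive cells and enrichment on EpCAM beads, live EpCAM+ cells with high, low or no GFP were sorted, which gave the groups Wnthigh, Wntlow and Wntnegative. All groups carried the same transgene and received no treatment, each array measured a pool of 3 to 4 animals from 8 ng of RNA, and each group had 6 arrays. Wnthigh arrays came from experiments 2, 4, 5, 7, 8 and 9 and the other arrays from experiments 3, 4, 5, 7, 8 and 9. The tissue is labelled as distal lungs, while the protocol also names the trachea and bronchi, so conducting airways can contribute cells.

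IGF1 and IGF2 are secreted growth factors that act mainly through IGF1R, a receptor tyrosine kinase that signals through IRS adaptors to PI3K and Akt. Binding proteins hold IGFs outside the cell, prolong their life and keep them from or bring them to the receptor, and several also bind matrix or cell surfaces. IGF2R carries no kinase: it takes up IGF2 for degradation and sorts lysosomal enzymes that bear mannose 6-phosphate, and in the lung IGF signals are known for their part in growth of the alveoli and repair of the epithelium.

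Values are the deposited log2 values, and a difference is a log2 difference on that scale. The arrays fell into 2 runs that were offset from each other, experiments 2 to 5 with array medians of 4.55 to 4.68 and experiments 7 to 9 with medians of 3.50 to 3.65. Each run held 3 arrays of each group. Groups were therefore compared within runs, in a limma fit with the run as a term. The 95th percentile of 23 control probe sets against no mouse sequence was taken as the background of an array, and it lay at 4.82 to 5.17 in experiments 2 to 5 and at 4.57 to 4.92 in experiments 7 to 9. Arrays of 1 group in 1 run correlated at 0.978 to 0.995. All 5 epithelial markers listed were above background on all 18 arrays, while Pecam1 and Ptprc, which mark endothelial cells and leukocytes, were below it on all 18. Esam and Cd68, other markers listed for these 2 cell types, were above it on all 18. Of the binding protein and receptor genes, Igf2r was above background on 18 arrays, Igf1r, Igfbp6 and Igfbp7 on 17 each, Igfbp5 on 16, Igfbp2 on 10, Igfbp4 on 2 and Igfbp3 on 0.

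The promoters of the 4 genes with the largest differences between groups are shown because the cells were sorted on a TCF/Lef reporter. Each sequence is the RefSeq window of 250 bases before to 50 bases after the annotated start in GRCm38.p6, on the strand of the gene, with capitals only where a searched motif matched. Igfbp5 lies at chr1:72874816-72875115 (minus strand), Igf1r at chr7:67952007-67952306 (plus), Igfbp6 at chr15:102143936-102144235 (plus) and Igfbp7 at chr5:77407996-77408295 (minus).
Igfbp5: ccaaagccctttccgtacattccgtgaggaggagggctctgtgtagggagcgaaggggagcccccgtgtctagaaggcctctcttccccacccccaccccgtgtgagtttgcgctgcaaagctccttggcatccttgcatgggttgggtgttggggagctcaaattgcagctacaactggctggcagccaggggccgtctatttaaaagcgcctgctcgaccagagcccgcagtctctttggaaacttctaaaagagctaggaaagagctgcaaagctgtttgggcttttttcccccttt
Igf1r: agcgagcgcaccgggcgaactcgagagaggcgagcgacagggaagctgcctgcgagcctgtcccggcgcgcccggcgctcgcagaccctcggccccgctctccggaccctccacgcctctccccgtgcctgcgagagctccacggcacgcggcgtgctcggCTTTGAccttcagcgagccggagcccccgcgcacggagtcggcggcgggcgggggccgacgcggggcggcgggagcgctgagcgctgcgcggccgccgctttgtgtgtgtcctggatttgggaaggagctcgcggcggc
Igfbp6: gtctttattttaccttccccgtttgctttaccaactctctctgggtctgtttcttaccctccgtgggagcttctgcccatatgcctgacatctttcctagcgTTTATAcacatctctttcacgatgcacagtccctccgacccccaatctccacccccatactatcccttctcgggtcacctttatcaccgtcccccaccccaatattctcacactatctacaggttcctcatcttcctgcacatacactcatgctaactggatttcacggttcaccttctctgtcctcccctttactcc
Igfbp7: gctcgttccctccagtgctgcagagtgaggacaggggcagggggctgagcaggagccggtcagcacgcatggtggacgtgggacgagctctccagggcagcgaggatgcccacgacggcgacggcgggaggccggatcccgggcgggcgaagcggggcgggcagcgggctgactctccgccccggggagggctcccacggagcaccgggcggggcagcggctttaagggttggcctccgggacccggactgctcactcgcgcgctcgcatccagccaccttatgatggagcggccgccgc

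The windows were searched on both strands for the TCF/Lef core CTTTGA, the forkhead core GTAAACA, the RFX site letters GTTGCCA and the TATA box TATAAA, which were present in 16%, 3.65%, 4.38% and 13.62% of 32851 RefSeq promoter windows. The Igf1r window held CTTTGA, with its first base at −89 relative to the start. The Igfbp6 window held the TATA letters on the opposite strand, as TTTATA at −148. The Igfbp5 and Igfbp7 windows held none of these 4 motifs, and of the other windows only that of Igfbp4 held one, TATAAA at −28. Igf1r and Igfbp7 had windows rich in CpG, with 48 and 33 CpG pairs and 76.0% and 73.3% G and C. Igfbp5 had 10 CpG pairs and 56.3% G and C, and Igfbp6 had 8 and 49.7%, against medians of 7 and 52.7% over all windows. A match describes letters in these windows and was not tested for factor binding. Igfbp2 and Igfbp5 are neighbouring genes on chromosome 1.

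Igfbp5, whose product binds both IGFs and matrix proteins, was highest in Wnthigh cells, intermediate in Wntlow cells and lowest in Wntnegative cells in both runs. In experiments 2, 4 and 5 the Wnthigh log2 values were 16.61, 16.54 and 16.86, and in experiments 7, 8 and 9 they were 16.28, 16.48 and 16.27. Wntlow values were 15.67, 12.41 and 14.77 in experiments 3, 4 and 5, and 10.85, 13.53 and 11.82 in experiments 7, 8 and 9. Wntnegative values in the same experiments were 8.94, 7.04, 6.98, 4.36, 4.48 and 5.49, of which those of experiments 7 and 8 were below background. The 3 groups did not overlap, the Wnthigh arrays lay closest together, and the Wntlow arrays were the most spread. The difference of Wnthigh from Wntnegative cells was 10.29, with 9.02 in experiments 2 to 5 and 11.57 in experiments 7 to 9. It was at least 10.18 with values under background set to the background of their array. Wntlow cells exceeded Wntnegative cells by 6.96 (SE 0.62), with 6.63 and 7.29 in the earlier and later run. Wnthigh exceeded Wntlow cells by 3.33 (SE 0.62), with 2.39 and 4.28.

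**Figure D1:**
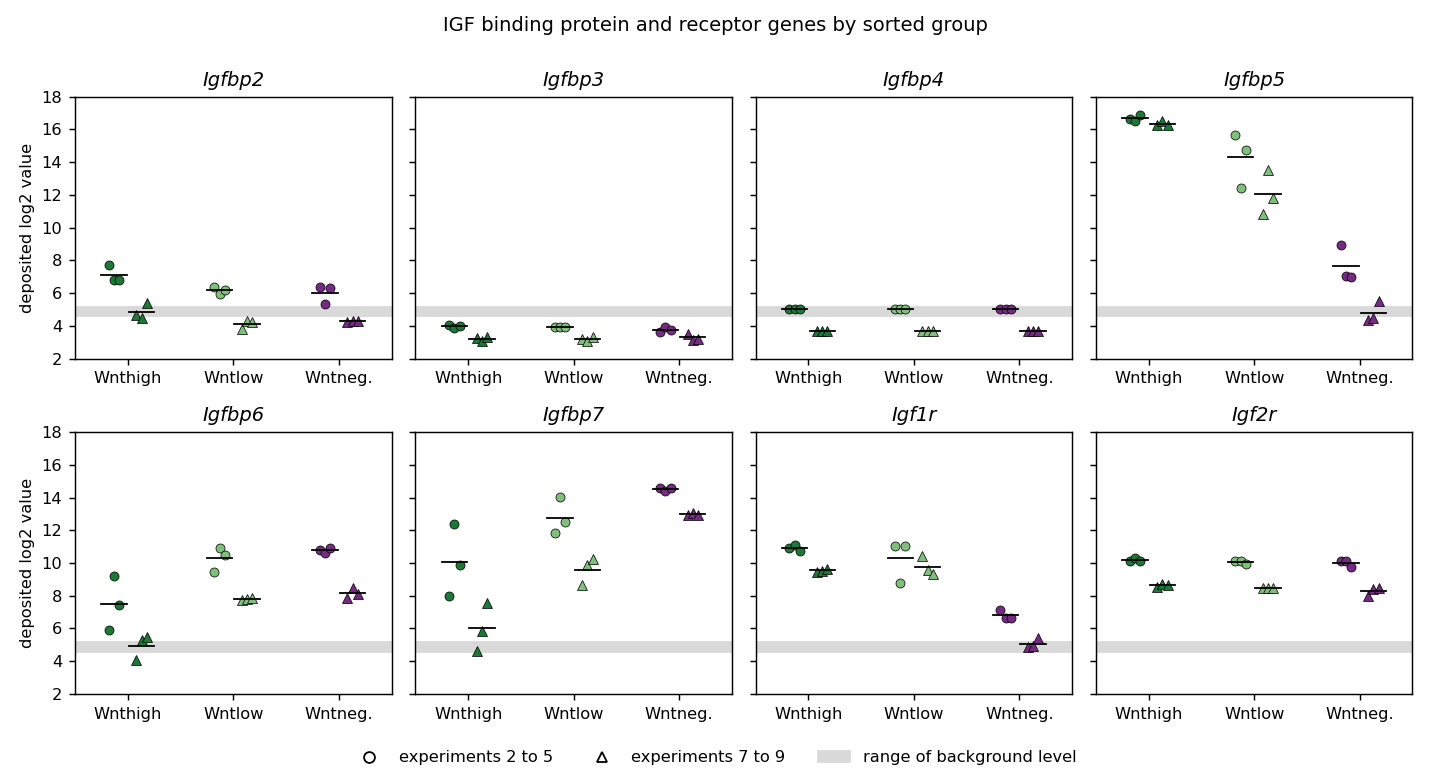
Deposited log2 value (vertical axis) of each of the 8 genes on the 18 arrays, by sorted group, with circles for experiments 2 to 5, triangles for experiments 7 to 9, a line at the mean of 3 arrays and a grey band for the range of background levels. Igfbp5 and Igf1r are lowest in Wntnegative cells, Igfbp6 and Igfbp7 are lowest in Wnthigh cells, and Igfbp3 lies under the band on every array.

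Igf1r, the signalling receptor, was high in both GFP-positive groups and low in Wntnegative cells. Wnthigh values were 10.93, 11.09 and 10.71 in experiments 2, 4 and 5 and 9.47, 9.51 and 9.64 in experiments 7, 8 and 9. Wntlow values were 11.02, 8.80 and 11.04 in experiments 3, 4 and 5 and 10.40, 9.55 and 9.31 in experiments 7, 8 and 9. Wntnegative values in the same order were 7.11, 6.63, 6.64, 4.88, 4.91 and 5.41, and 5 of these 6 were above background. Within each run every Wntnegative array lay below every GFP-positive array, while the Wnthigh and Wntlow arrays overlapped. Igf1r was higher by 4.29 in Wnthigh (SE 0.34, adjusted p = 4.98e-08 in limma) and by 4.09 in Wntlow (SE 0.34, adjusted p = 8.5e-07) than in Wntnegative cells. Wnthigh and Wntlow cells differed by 0.21 (95% interval −0.53 to 0.94, adjusted p = 0.763). The values of Igfbp5, which was chosen on these arrays, thus lay apart in all 3 groups. Those of Igf1r lay apart within each run between the GFP-positive groups and the negative one. How many of all genes have groups that do not overlap was not counted, so such statements here only describe the gene's own values.

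Igf2r, the receptor that clears IGF2, was above background in every group and its values lay close together. Wnthigh values were 10.14, 10.30, 10.09, 8.51, 8.69 and 8.68 in the order of experiments. Wntlow values were 10.14, 10.09, 9.91, 8.44, 8.44 and 8.44, and Wntnegative values were 10.10, 10.09, 9.73, 8.01, 8.44 and 8.44. The groups overlapped in experiments 2 to 5, and in experiments 7 to 9 the 3 Wnthigh arrays lay above the other 6. Compared at 5 decimals, 3 arrays of the earlier run and 4 of the later run shared 1 value, which lowers the measured spread. Igf2r was 0.27 higher in Wnthigh than in Wntnegative cells (SE 0.08, adjusted p = 0.016), a call that neither run gave alone (adjusted p = 0.255 and 0.0879) and that was lost without the run term (adjusted p = 1). Wntlow and Wntnegative cells differed by 0.11 (95% interval −0.07 to 0.28, adjusted p = 0.386). Wnthigh exceeded Wntlow cells by 0.16 (SE 0.08, adjusted p = 0.192), and by 0.20 (SE 0.06, adjusted p = 0.0274) once experiments were blocked.

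Igfbp7, a secreted protein with weak affinity for IGFs that is also found in basement membranes, showed the opposite order, highest in Wntnegative and lowest in Wnthigh cells. Wntnegative values were 14.56, 14.42 and 14.55 in experiments 3, 4 and 5 and 12.96, 13.03 and 12.91 in experiments 7, 8 and 9. Wntlow values were 11.82, 14.01, 12.49, 8.62, 9.88 and 10.24, and Wnthigh values in experiments 2, 4, 5, 7, 8 and 9 were 7.99, 12.35, 9.89, 4.60, 5.85 and 7.56. In experiments 7 to 9 the groups did not overlap; in experiments 2 to 5 only the Wnthigh array of experiment 4 reached into the Wntlow range. Igfbp7 was lower in Wnthigh than in Wntnegative cells, with a difference of −5.70 (SE 0.70, adjusted p = 5.04e-06), and than in Wntlow cells, with −3.14 (SE 0.70, adjusted p = 0.00241). The latter did not pass in experiments 2 to 5 alone (adjusted p = 0.155) or without the run term (adjusted p = 0.134). The difference of Wntlow from Wntnegative cells was −2.56 (SE 0.70, adjusted p = 0.0123), with −1.74 in experiments 2 to 5 (adjusted p = 0.360) and −3.39 in experiments 7 to 9 (adjusted p = 0.0206). That call was lost without experiment 8 (−2.44, adjusted p = 0.0561) and without the run term (adjusted p = 0.371).

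Igfbp6, a binding protein that prefers IGF2, was lower in Wnthigh cells than in both other groups. Wnthigh values were 5.92, 9.21, 7.43, 4.06, 5.29 and 5.45, against 9.43, 10.92, 10.50, 7.74, 7.83 and 7.86 in Wntlow and 10.78, 10.62, 10.89, 7.88, 8.44 and 8.11 in Wntnegative cells. Within each run every Wnthigh array lay below every other array. The differences were −3.23 from Wntnegative (SE 0.41, adjusted p = 7.92e-06) and −2.82 from Wntlow cells (SE 0.41, adjusted p = 6.34e-05). The latter had an adjusted p of 0.0655 in experiments 2 to 5 alone and of 0.0647 without the run term. Wntlow differed from Wntnegative cells by −0.41 (95% interval −1.29 to 0.47, adjusted p = 0.526), while Igfbp7 fell in the same comparison; whether the 2 genes differ there was not tested.

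Igfbp2, a binding protein of both IGFs, was modestly higher in Wnthigh cells. In experiments 2, 4 and 5 the Wnthigh values were 7.71, 6.80 and 6.80, above the Wntlow values of 6.38, 5.94 and 6.20 and the Wntnegative values of 6.38, 5.34 and 6.31 in experiments 3, 4 and 5. In experiments 7 to 9 the Wnthigh values were 4.67, 4.46 and 5.39, and the last was the only one of the 9 arrays of that run above background. The difference of Wnthigh cells was 0.83 from Wntnegative (SE 0.21, adjusted p = 0.00497) and 0.83 from Wntlow cells (SE 0.21, adjusted p = 0.00731). With values under background set to the background these became 0.56 and 0.43, and neither passed in 1 run alone or without the run term. Wntlow and Wntnegative cells differed by 0.00 (95% interval −0.45 to 0.46).

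Igfbp3 and Igfbp4, the carrier of most circulating IGF and a binding protein cleaved by pappalysins, lay at or under background in these cells. Igfbp3 ran from 3.05 to 4.04 and was under background throughout. Igfbp4 ran from 3.67 to 5.05, and at 5 decimals it had 1 value on all 9 arrays of experiments 7 to 9 and 1 value on 6 of the 9 arrays of experiments 2 to 5. No difference of either gene passed the test, and their direction is not read.

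**Figure D2:**
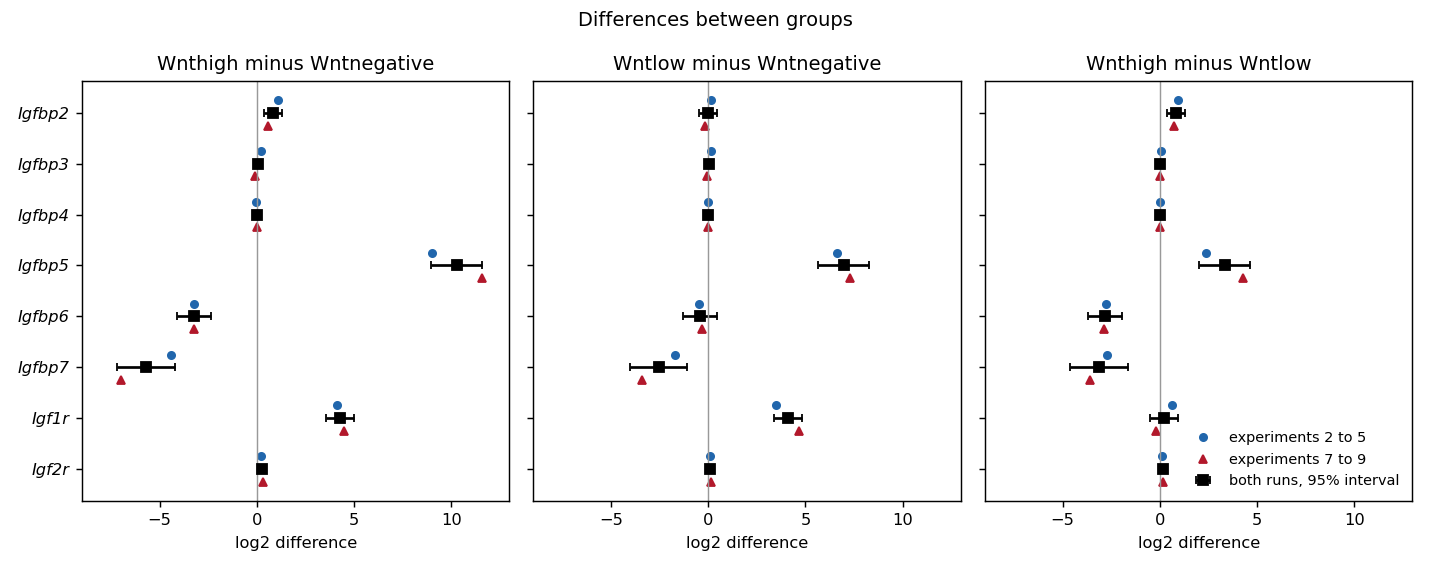
Log2 difference (horizontal axis) of each gene in the 3 comparisons, with a black square and 95% interval for the fit of both runs, a blue circle for experiments 2 to 5 and a red triangle for experiments 7 to 9. Igfbp5 has its largest difference against Wntnegative cells, 10.29, and Igfbp7 its lowest, −5.70.

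Counted over the family without Igfbp5, 5 of 7 genes passed between Wnthigh and Wntnegative cells, 3 higher and 2 lower, beside 40.3% of all 30142 genes, 15.7% higher and 24.6% lower. Between Wntlow and Wntnegative cells 2 of 7 passed, 1 higher and 1 lower, beside 25.5% of all genes, 12.3% higher and 13.2% lower. Between Wnthigh and Wntlow cells 3 of 7 passed, 1 higher and 2 lower, beside 27.9% of all genes, 11.4% higher and 16.4% lower. With so few genes against such shares, the counts are not read as a result about the family, and the genes' own values carry the description. The median differences of the 8 genes were 0.17, 0.02 and 0.09, against −0.05, −0.03 and −0.01 over all genes. Centring each array on its median left these member counts as they were, and moved the split of all genes to 6174 higher and 5860 lower (from 4718 and 7424) between Wnthigh and Wntnegative cells, and to 5142 and 2745 (from 3713 and 3984) between Wntlow and Wntnegative cells. For none of the 24 gene and comparison pairs did the difference between groups differ between runs at an adjusted p under 0.05 (limma, lowest adjusted p = 0.744), as for 0% of all genes in each comparison. At an unadjusted p under 0.05 this was 1 of the 24 pairs, Igfbp5 between Wnthigh and Wntnegative cells, and 1940, 1757 and 2183 of all genes. Igfbp5 was chosen on these arrays, so its pair is not read as a result.

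Cell type markers moved with these genes. The mean log2 level of 9 ciliated cell markers was 14.50 to 14.97 in Wnthigh, 9.07 to 13.73 in Wntlow and 4.26 to 7.05 in Wntnegative arrays. Among Wntlow arrays it was lowest within the run on the arrays of experiments 4 (9.66) and 7 (9.07), which also had the lowest Igfbp5, and highest on those of experiments 3 (13.73) and 8 (11.23), which had the highest. The 8 alveolar type II markers averaged 12.46 to 16.94 in Wnthigh, 15.63 to 17.89 in Wntlow and 17.99 to 19.03 in Wntnegative arrays, and the 7 alveolar type I markers 5.66 to 9.05, 7.83 to 9.95 and 8.78 to 10.44. The Wnthigh array of experiment 4, with the highest Igfbp6 and Igfbp7 of its group, also had the highest type II (16.94) and type I (9.05) levels of that group. The 7 club cell markers averaged 14.55 to 16.22 in Wnthigh, 16.31 to 17.88 in Wntlow and 11.77 to 13.14 in Wntnegative arrays. The 7 goblet cell markers averaged 7.16 to 10.88, 11.77 to 13.44 and 4.38 to 5.91. Like Igf1r, both lists were lowest in Wntnegative cells in both runs, and so was the ciliated list. Unlike Igf1r, whose Wnthigh and Wntlow arrays overlapped, the club and goblet lists were higher in Wntlow than in Wnthigh arrays of each run. Of markers of cells that the sort should remove, 5 of 7 for fibroblasts, 6 of 7 for smooth muscle and pericytes, 5 of 7 for endothelium and 4 of 6 for leukocytes were under background on all 18 arrays, while Esam of the endothelial and Cd68 of the leukocyte list were above it on all 18. Of 5 mesothelial markers 1, Wt1, was under background throughout, and their mean was higher in Wntlow (5.81 to 6.94 in experiments 2 to 5, 4.66 to 5.85 in experiments 7 to 9) than in Wntnegative arrays (4.84 to 5.06 and 3.45 to 3.66), with 4.70 to 6.13 and 3.69 to 3.78 in Wnthigh arrays. In sorted pools, a change in the share of a cell type and a change of RNA per cell cannot be told apart, and the part of cell type in these differences was not tested.

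**Figure D3:**
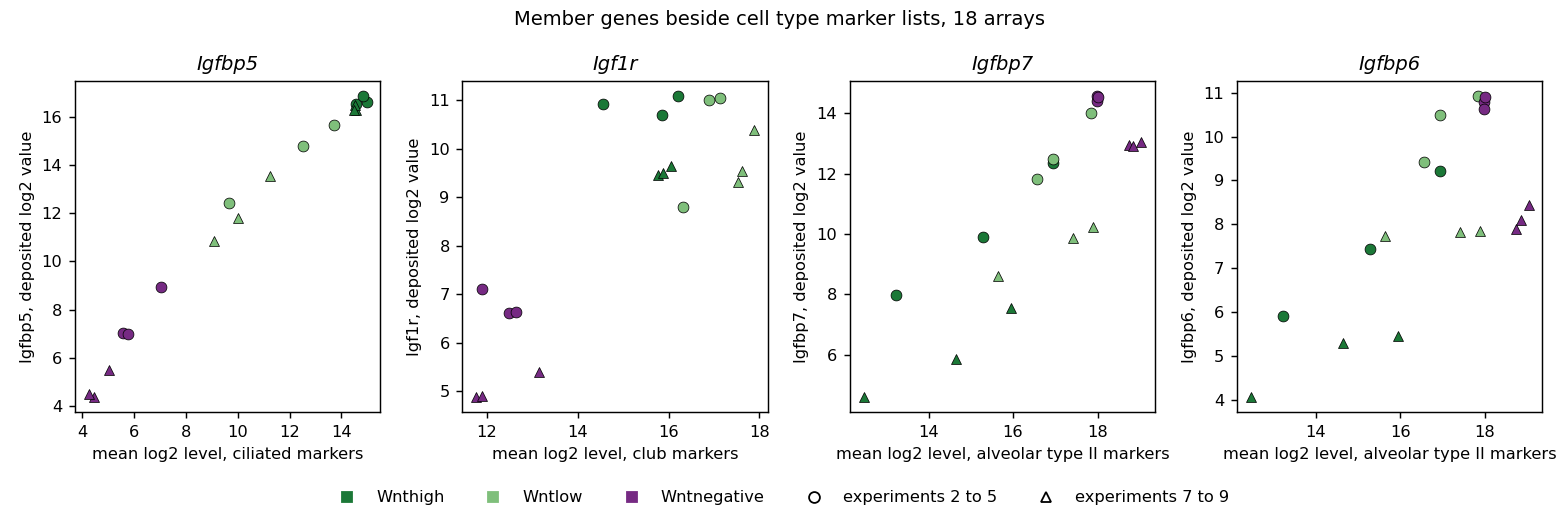
Deposited log2 value of Igfbp5, Igf1r, Igfbp7 and Igfbp6 (vertical axes) against the mean log2 level of a marker list on the same array (horizontal axes), 18 arrays coloured by group, with circles for experiments 2 to 5 and triangles for experiments 7 to 9. Igfbp5 is highest on the Wnthigh arrays, whose ciliated markers average 14.50 to 14.97, and Igfbp7 and Igfbp6 lie lowest within a run where type II markers are lowest.

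The genes whose pattern over the 18 arrays was most like each gene were taken by Pearson's r after the mean of each run was removed. These values are descriptions, since the arrays share 3 groups and 2 runs. For Igfbp5 they were Rsph4a, a radial spoke protein of motile cilia (r = 0.999), Cdhr3, a cadherin of ciliated cells (r = 0.999), and 1700007K13Rik (r = 0.999). For Igf1r they were Atp2c2, a Golgi calcium and manganese pump (r = 0.992), Fgfr3, a receptor for fibroblast growth factors (r = 0.991), and Adam28, a membrane metalloprotease (r = 0.991). Igfbp7 was most like Ctsc, a lysosomal protease (r = 0.997), the type I cell receptor gene Ager (r = 0.996) and Anpep, a membrane aminopeptidase (r = 0.995). Igfbp6 was most like the catalase gene Cat (r = 0.987), Sytl2, which takes part in vesicle docking (r = 0.986), and the glutathione transferase gene Gstt1 (r = 0.985). The likeness was lower for Igfbp2, led by Aldh1b1 (r = 0.933), Nkap (r = 0.928) and Sema6d (r = 0.914), and for Igf2r, led by Sorl1 (r = 0.916), Map3k2 (r = 0.885) and Dsp (r = 0.858). Among the 8 genes, Igfbp5 and Igf1r varied together (r = 0.927), as did Igfbp6 and Igfbp7 (r = 0.913), and Igfbp5 and Igfbp7 varied in opposite ways (r = −0.882).

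Of 68 other genes listed for the IGF pathway 58 were measured, and 46 of them were above background on at least 1 array. Between Wnthigh and Wntnegative cells 8 were higher, 27 lower and 23 did not pass, with a median difference of −0.16, beside 15.7% higher and 24.6% lower over all genes. Between Wntlow and Wntnegative cells the counts were 6, 21 and 31 (median −0.08), beside 12.3% higher and 13.2% lower over all genes. Between Wnthigh and Wntlow cells they were 8, 24 and 26 (median −0.17), beside 11.4% and 16.4%. Genes called while at background in both groups numbered 3, 1 and 4. Among genes above background on 3 or more arrays, 4463 of all 16048 were higher and 6420 lower in the first comparison. Of the 45 pathway genes among them, 6 were higher and 27 lower. With arrays centred on their median the first 2 comparisons gave 12 higher and 24 lower, and 13 higher and 16 lower. The next counts leave out the genes named below after their values were seen. Of the pathway genes named below by rule, 21, 17 and 19 passed in the 3 comparisons, all with the same sign in both runs. In experiments 2 to 5 alone 20, 2 and 6 of them passed, and in experiments 7 to 9 alone 20, 15 and 13. Between Wnthigh and Wntnegative cells 8999 and 7906 of all 30142 genes passed in the earlier and later run alone. Genes of the larger roles were named because they passed with large differences in the fit of these same arrays. Their counts and shared signs therefore follow in large part from the choice and are not read as replication.

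Of the ligands, Igf1 was under background on all arrays. Igf2 exceeded background on 1 Wnthigh array and on 3 arrays of each other group and had a difference of −0.18 between Wnthigh and Wntlow cells (SE 0.05, adjusted p = 0.00752), which passed in neither run alone. The insulin gene Ins2 was above background on 1 Wnthigh and 1 Wntlow array, and no difference of it passed.

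Among relatives of the binding proteins, Esm1, which encodes the secreted proteoglycan endocan, averaged 8.89 in Wnthigh, 5.41 in Wntlow and 4.26 in Wntnegative cells, where it exceeded background on 1 array. It was higher in Wnthigh than in Wntnegative cells by 4.63 (SE 0.25, adjusted p = 4.05e-09; at least 3.90 with the background as floor) and than in Wntlow cells by 3.49 (SE 0.25, adjusted p = 9.25e-07). Ccn3, a matricellular protein with a binding protein domain, was also higher in Wnthigh cells, by 1.70 against Wntnegative (adjusted p = 7.46e-06) and 0.75 against Wntlow cells (adjusted p = 0.0154). The latter was 1.28 in experiments 2 to 5 and 0.21 in experiments 7 to 9 (adjusted p = 0.680). Igfals, which encodes the acid-labile subunit that holds IGF and its binding protein in the circulation, was lower than in Wntnegative cells by −1.27 in Wnthigh (adjusted p = 0.000215) and −0.92 in Wntlow cells (adjusted p = 0.00584), the latter passing in neither run alone. Ccn1, another matricellular protein, had a difference of −0.90 between Wnthigh and Wntlow cells (adjusted p = 0.046), with −0.30 and −1.50 in the 2 runs, neither of which passed alone, and did not pass in the other comparisons. Igfbp1, the remaining classical binding protein, which was named after its values were seen, was under background on all 18 arrays.

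Genes of the HtrA serine proteases, some of which cleave binding proteins, moved in different directions. Htra4 was higher in Wnthigh cells, by 2.14 against Wntnegative (adjusted p = 1.34e-07) and 1.34 against Wntlow cells (adjusted p = 4.4e-05). Htra1 was lower than in Wntnegative cells in Wnthigh (−1.99, adjusted p = 4.32e-06) and Wntlow cells (−1.25, adjusted p = 0.00105), and these became −1.11 and −0.69 with the background as floor. Htra3 was lower in Wnthigh than in Wntnegative (−0.69, adjusted p = 0.000262) and Wntlow cells (−0.87, adjusted p = 4.87e-05), at a level near background in each group. With the background as floor the former did not keep its sign and the latter became −0.09. Wntlow and Wntnegative cells differed by 0.19 in Htra3 (adjusted p = 0.308). The metalloprotease gene Adamts1 was lower in Wnthigh (−3.64, SE 0.39, adjusted p = 1.24e-06) and Wntlow cells (−2.61, SE 0.39, adjusted p = 0.000146) than in Wntnegative cells.

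Among proteins that bind the binding proteins, Tmem219, a cell surface receptor for IGFBP3, was lower in Wnthigh than in Wntnegative (−0.64, adjusted p = 0.000723) and Wntlow cells (−0.91, adjusted p = 5.02e-05). The endocytic receptor gene Lrp1 was higher in Wntlow cells, by 1.28 over Wntnegative cells (adjusted p = 0.000346), and Wnthigh fell below Wntlow cells with −1.02 (adjusted p = 0.00152). The former was 0.67 in experiments 2 to 5 (adjusted p = 0.0561) and 1.88 in experiments 7 to 9. The latter was −0.40 in experiments 2 to 5 (adjusted p = 0.196) and −1.64 in experiments 7 to 9. The caveolin gene Cav1 was lower in Wnthigh (−1.32, adjusted p = 0.00153) and Wntlow cells (−1.21, adjusted p = 0.00554) than in Wntnegative cells. In experiments 2 to 5 alone neither passed (−1.23, adjusted p = 0.0818, and −0.74, adjusted p = 0.363), while both passed in experiments 7 to 9 alone. Cd93 was under background on all arrays.

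Downstream of the receptors, 8 of 13 adaptors and regulators were lower and 1 higher in Wnthigh than in Wntnegative cells, beside 24.6% and 15.7% of all genes. The higher one, Irs4 (0.14), and 1 of the lower ones, Socs3 (−0.13), were under background on all arrays of both groups. Of the 13 genes, 10 were above background on at least 1 array of these groups. Among the 16048 genes above background on 3 or more arrays, 6420 were lower and 4463 higher, larger shares than over all genes. The counts of these adaptors and of the PI3K group below are therefore not read as a result about them. Irs1 and Irs2, the adaptors that link the receptor to PI3K, had differences of −3.34 (SE 0.35, adjusted p = 8.65e-07) and −3.05 (SE 0.36, adjusted p = 3.38e-06). In Wntlow cells they were −2.64 (adjusted p = 5.22e-05) and −1.56 (adjusted p = 0.00418). Grb14 and Grb10, adaptors that restrain insulin family receptors, were lower in Wnthigh cells by −2.66 (adjusted p = 2.18e-05) and −1.44 (adjusted p = 2.9e-07). Of 18 genes of the PI3K, Akt, Foxo and mTOR group 10 were lower and 2 higher, beside the same shares of all genes. The higher ones were the regulatory subunit Pik3r2 (0.48, adjusted p = 2.14e-06) and the transcription factor Foxo1 (0.42, adjusted p = 0.0378). They were named, like Irs4 and Socs3, after their values were seen. The Foxo1 difference was 0.01 in the earlier run alone (adjusted p = 0.978) and 0.83 in the later run alone (adjusted p = 0.0205). The lower ones included the catalytic subunit Pik3ca (−2.75, adjusted p = 1.06e-08), the regulatory subunit Pik3r1 (−1.48, adjusted p = 1.03e-07), the transcription factor Foxo3 (−2.30, adjusted p = 3.13e-07) and the kinase Gsk3b (−1.33, adjusted p = 4.3e-08). Irs2 and these 4 genes were also lower in Wnthigh than in Wntlow cells, by −1.50 (Irs2), −1.29 (Pik3ca), −1.11 (Pik3r1), −1.22 (Foxo3) and −0.66 (Gsk3b).

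The mannose 6-phosphate route makes the tag that Igf2r recognises. Gnptab, which encodes the catalytic subunits of the enzyme that adds it, was lower in Wnthigh (−2.70, SE 0.25, adjusted p = 2.23e-07) and Wntlow cells (−1.81, SE 0.25, adjusted p = 6.98e-05) than in Wntnegative cells. Gnptg, the gene of its regulatory subunit, and Nagpa, that of the enzyme that uncovers the tag, were lower in Wnthigh than in Wntnegative cells by −0.52 (adjusted p = 0.00126) and −0.44 (adjusted p = 0.00044). M6pr, the other mannose 6-phosphate receptor, was lower in Wnthigh than in Wntlow cells by −0.48 (adjusted p = 0.00935) and had a difference of −0.14 from Wntnegative cells (adjusted p = 0.436). Igf2bp3, which encodes an RNA-binding protein of the Igf2 message, passed between Wnthigh and Wntnegative cells (0.20, adjusted p = 0.0432), with 0.39 in experiments 2 to 5 and 0.01 in experiments 7 to 9, while under background on every array.

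**Figure D4:**
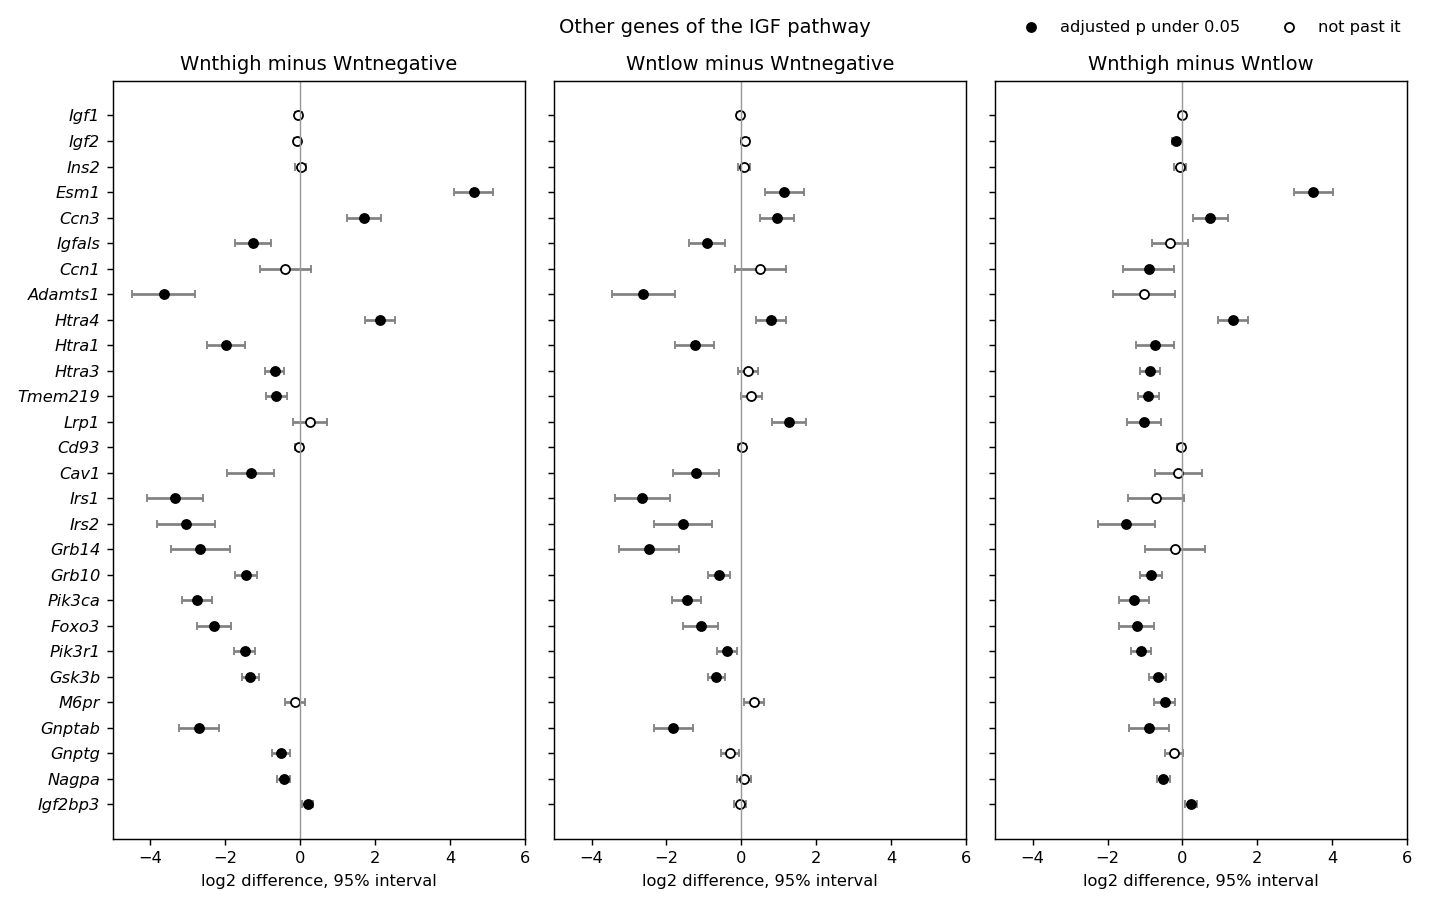
Log2 difference with its 95% interval (horizontal axis) of 28 other genes of the IGF pathway in the 3 comparisons, filled where the adjusted p was under 0.05. Esm1 (4.63) and Htra4 (2.14) lie farthest to the right and Adamts1 (−3.64) and Irs1 (−3.34) farthest to the left between Wnthigh and Wntnegative cells.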

How the data were processed

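The authors deposited log2 values of 72688 probe sets on 18 Affymetrix arrays, made with RMA per the submitters' processing notes. The software version, chip library and genome build were not given in the sources used here. The deposited log2 values reach 19.93, above the limit of 16 that a 16-bit scanner sets, so differences are not read as ratios of RNA amounts. Leaving out controls, 65956 probe sets remained, of which 30604 had 1 platform symbol, 2146 several and 33206 none. A gene took the brightest probe set with its symbol alone (355 genes had several), and 827 symbols were updated from RefSeq.

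Groups came from the labels. Differences were tested with limma 3.58.1 in R 4.3.3 (group and run as terms, all 18 arrays, two-sided, Benjamini-Hochberg over 30142 genes, threshold 0.05), a procedure tested on simulated data. The simulated noise was independent between arrays, so that test did not cover correlation between arrays of a shared experiment. An earlier analysis of these arrays had no run term, which is an alternative here. The members, gene lists and tests were chosen with earlier results of these data known. Replicates are pools from separate experiments, and the number of arrays limits the precision.

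Arrays with the same experiment number in the labels come from a shared experiment. The fit has the run but no experiment term, and a fit with the experiment as a block is an alternative. Deviations of same-numbered arrays from their group means within a run correlated at 0.003 to 0.516 in 16 pairs, with 12 above 0.1. Pathway genes were named by rule: all of roles with at most 4 measured genes, and otherwise up to 4 with the largest differences past the threshold; the 3 most similar protein coding genes were named per member, except for Igfbp3 and Igfbp4, which were at background. No dim genes were removed. In a filter on dim genes (above background on 3 or more arrays), 16048 genes and 6 of the 8 members remained. Alternatives covered the run term, each run alone, a fixed or random block for the experiment, centring, quantile normalization, the dim filter, means of probe sets, the groups in the fit, a trended robust variance and the omission of each experiment.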

Additional observations from a re-analysis of the deposited data

Results flagged for a closer look

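A group's highest or lowest array was set apart from its neighbour when the gap between them, as a share of the group's range after run means were removed, was above 0.625, the limit of Dixon's ratio for 6 arrays. Chance would set apart about 1 group in 20 if the 6 values shared 1 centre and spread, and 24 groups were examined. Run means were taken over all groups of a run, so the values of a group need not share a centre. Values that are tied or at background also change the range, so this rate is only a rough guide.

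Igfbp2 was low on the Wntnegative array of experiment 4, at 5.34, with a ratio of 0.895. Its Wntnegative values in experiments 7, 8 and 9 were 4.25, 4.28 and 4.29, all below background. Igf2r was low on the Wntlow array of experiment 5, at 9.91, with a ratio of 0.636, in a group whose arrays of experiments 7 to 9 all had 8.44. Igfbp4 gave a ratio of 0.774 for the Wnthigh array of experiment 4 and 0.919 for the Wntnegative array of experiment 5, on a gene that is at or near background with 1 value shared by most arrays of a run.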

How the results depend on the processing

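No member difference that had passed changed sign under any setting run. Of the tested differences of the 7 members other than Igfbp5, 355 values under other settings kept their side of the threshold, 16 lost it and 1 gained it. The 355 include differences that had not passed, among them all of Igfbp3 and Igfbp4, while the 16 losses all fall on differences that had passed. Igfbp5 between Wnthigh and Wntnegative cells moved to 9.02 and 11.57 in the runs alone. Member counts in the last 2 comparisons include Igfbp5 here. Since Igfbp5 was chosen on these arrays, its part in those counts is not read as a test. Without the run term the genes called numbered 2824, 1061 and 1351 (high against negative, low against negative, high against low; 12142, 7697 and 8402 with it), the pathway genes 10, 4 and 1 (35, 27 and 32), and the members 3 and 1 (5 and 4) in the first and last comparison. In experiments 2 to 5 alone, genes called were 2532 (low against negative) and 3291 (high against low), pathway genes 6 and 10, and members 3 (high against negative) and 0 (high against low). In experiments 7 to 9 alone they were 7906 (high against negative) and 4471 (low against negative) genes, 21 pathway genes (high against low) and 3 members (high against negative). Each run alone has 9 of the 18 arrays. With the experiment as a replicate block, members called were 5, 3 and 5, since Igf2r passed between Wnthigh and Wntlow cells (0.20, adjusted p = 0.0274); the block changed no other member call. Without each experiment in turn, member counts were 5 (high against negative), 2 to 3 (low against negative) and 4 (high against low), where Igfbp7 between Wntlow and Wntnegative cells was lost without experiment 8. Values near background limit Igfbp2, Igfbp3, Igfbp4 and, in Wntnegative cells, Igfbp5.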
